A study of Mus musculus with 24 samples.

Results

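The 10 genes described here are T, Mesp1, Isl1, Mef2c, Hand1, Hand2, Tbx20, Foxf1, Gata2 and Pdgfra, a set of mesoderm and cardiac genes chosen by symbol from the 19953 genes of the deposited table. All 10 symbols were found. They were measured by polyA RNA sequencing in 24 libraries from mouse embryonic stem cells, 3 libraries for each pairing of 4 genotypes with 2 days (8 groups). Of these, 9 encode transcription factors and Pdgfra encodes a cell surface receptor, so the set is not made of transcription factors alone.

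The 4 genotypes derive from a mouse embryonic stem cell line in which Mll2 can be deleted through an inducible Cre. WT cells are that line without drug, and Mll1-KO cells were made from it by CRISPR deletion and were likewise untreated. Mll2-KO and double-KO cells were treated with 800 nM 4-OHT (4-hydroxytamoxifen) for 48 h to induce the deletion, so loss of Mll2 and the drug cannot be told apart in any comparison below. Day 0 cells of each genotype grew on gelatin with LIF and 15% FBS, and day 4 cells had been differentiated for 4 days in 10% FBS with 1 µM retinoic acid, in a protocol the submitters call multilineage. The labels do not give the number of clones per genotype, nor whether replicates came from separate cultures, and p-values then measure only the spread between these samples.

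As background, mesoderm forms at the primitive streak, where T (Brachyury) is switched on, and Mesp1 then marks the earliest cardiac precursors. Isl1 marks second heart field precursors, Mef2c, Hand1, Hand2 and Tbx20 act in the forming heart, and Foxf1 is a forkhead factor of lateral plate and splanchnic mesoderm. Gata2 is best known in blood and endothelial precursors and, like Hand1, is also used in trophoblast. Pdgfra, a receptor for platelet-derived growth factors, is present in early mesoderm and also in primitive endoderm, so it is no marker of mesoderm alone. MLL1 and MLL2, encoded by Kmt2a and Kmt2b, are methyltransferases of lysine 4 of histone H3, and MLL2 is known for acting at promoters rich in CpG dinucleotides. The study, by its title, concerns long-range regulation by MLL2 through LINE1 elements, and the comparisons below ask how each of the 10 genes differed when either enzyme or both were lost.

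The promoter sequences of 4 of the genes are shown because these genes gave the largest differences between genotypes and because their CpG content differs. Each is the 250 bases before a RefSeq transcription start on GRCm38.p6, the mm10 assembly, read 5′ to 3′ on the strand of the gene, with CpG dinucleotides in capitals. Tbx20 lies on the minus strand and the other 3 on the plus strand, and the windows are chr9:24774304-24774553 for Tbx20, chr6:88193641-88193890 for Gata2, chr5:75152001-75152250 for Pdgfra and chr13:83503784-83504033 for the most upstream of 3 Mef2c starts.
Tbx20: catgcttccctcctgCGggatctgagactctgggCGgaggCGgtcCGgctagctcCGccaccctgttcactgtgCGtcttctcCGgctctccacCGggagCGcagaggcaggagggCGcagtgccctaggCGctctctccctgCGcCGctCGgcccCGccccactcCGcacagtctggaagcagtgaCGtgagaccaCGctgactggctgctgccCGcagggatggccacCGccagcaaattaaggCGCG
Gata2: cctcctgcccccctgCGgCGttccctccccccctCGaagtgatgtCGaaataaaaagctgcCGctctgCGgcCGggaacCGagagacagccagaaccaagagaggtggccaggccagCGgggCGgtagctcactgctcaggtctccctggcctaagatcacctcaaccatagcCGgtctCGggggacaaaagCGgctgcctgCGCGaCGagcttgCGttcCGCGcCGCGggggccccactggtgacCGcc
Pdgfra: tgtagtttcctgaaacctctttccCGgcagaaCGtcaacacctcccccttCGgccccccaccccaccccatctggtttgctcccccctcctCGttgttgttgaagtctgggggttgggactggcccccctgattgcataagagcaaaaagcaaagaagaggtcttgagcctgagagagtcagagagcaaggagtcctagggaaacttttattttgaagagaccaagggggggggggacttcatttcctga
Mef2c: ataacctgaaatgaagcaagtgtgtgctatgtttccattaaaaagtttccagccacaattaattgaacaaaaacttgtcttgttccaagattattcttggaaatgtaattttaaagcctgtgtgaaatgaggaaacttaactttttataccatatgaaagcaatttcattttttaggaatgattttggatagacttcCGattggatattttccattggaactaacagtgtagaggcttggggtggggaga
Tbx20 and Gata2 each held 22 CpG dinucleotides, Pdgfra 4 and this Mef2c window 1, against a median of 6 (quartiles 2 to 16) over 32851 promoter windows of the same length. The other 2 Mef2c windows held 6 and 4 CpG, a second Gata2 window held 24, and those of Isl1, Hand2, T and Mesp1 held 33, 15, 14 and 2. In all, 8 of the 10 genes matched the promoter table, with 11 windows, and Hand1 and Foxf1 did not. An E-box (CANNTG, a motif whose reverse complement has the same form) occurred 2 times in the Mef2c window and 1 time in that of Pdgfra, and neither Tbx20 nor the Gata2 window shown held one, while 66.2% of all windows did. A T-box motif (AGGTGT, searched on both strands) occurred 1 time in the Pdgfra window and in 11.8% of all windows. Counts per gene do not tell which start was used. The bases just after the Pdgfra start were found in no annotated Pdgfra transcript, and the annotated gene begins further downstream, at 75152292. Those just after the Mef2c start whose window held 6 CpG were likewise found in no annotated Mef2c transcript.

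Recovered read totals were 17.7 to 22.8 M (mega) per library at day 0 and 10.7 to 17.1 M at day 4. Values are normalized counts, that is, reads divided by 1 size factor per library. They are given for the 3 libraries in replicate order and as mean ± SD (n = 3), and changes are differences of log2(normalized count + 1) with adjusted p-values from limma. Called means an adjusted p below 0.05. Stem cell identity at day 0 was read from 12 pluripotency genes, whose summed level was 136960 to 155935 in the day 0 libraries and 3065 to 9872 at day 4. The day 4 level differed between genotypes without overlap. It was 5703 to 7144 in WT, 3065 to 3504 in Mll1-KO, 8571 to 9872 in Mll2-KO and 4751 to 4972 in the double-KO. Kmt2a was 1089 ± 37.8 in day 0 WT and 29.7 ± 11.8 in day 0 Mll1-KO, and 2141 ± 106 and 55.9 ± 13.7 at day 4, and in the double-KO it was 29.7 ± 8.36 and 104 ± 24.0. Kmt2b, the gene that encodes MLL2, showed almost no drop in its counts where it was to be deleted. At day 0 it was 2853 ± 48.2 in WT, 2539.9 ± 226 in Mll2-KO and 2639.9 ± 137 in the double-KO, with log2 changes of -0.17, adjusted p = 0.0328, and -0.11, adjusted p = 0.141. At day 4 it was 2269 ± 57.4, 2502 ± 189 and 2266 ± 150.2, with log2 changes of 0.14, adjusted p = 0.0365, a call of higher, and -0.0038, adjusted p = 0.96. Which part of Kmt2b was removed is not given in the sources used here, and counts over the whole gene do not resolve a deleted stretch, so the loss of Mll2 in the libraries labelled Mll2-KO and double-KO rests on the labels alone, as does every direction drawn from them. The third day 0 Mll2-KO library stood apart from the other 2 of its group, with a chi-square per degree of freedom of 11.48 and 11.43 against them and 3.54 between them, so changes of members that rest on that group are also given without it.

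**Figure D1:**
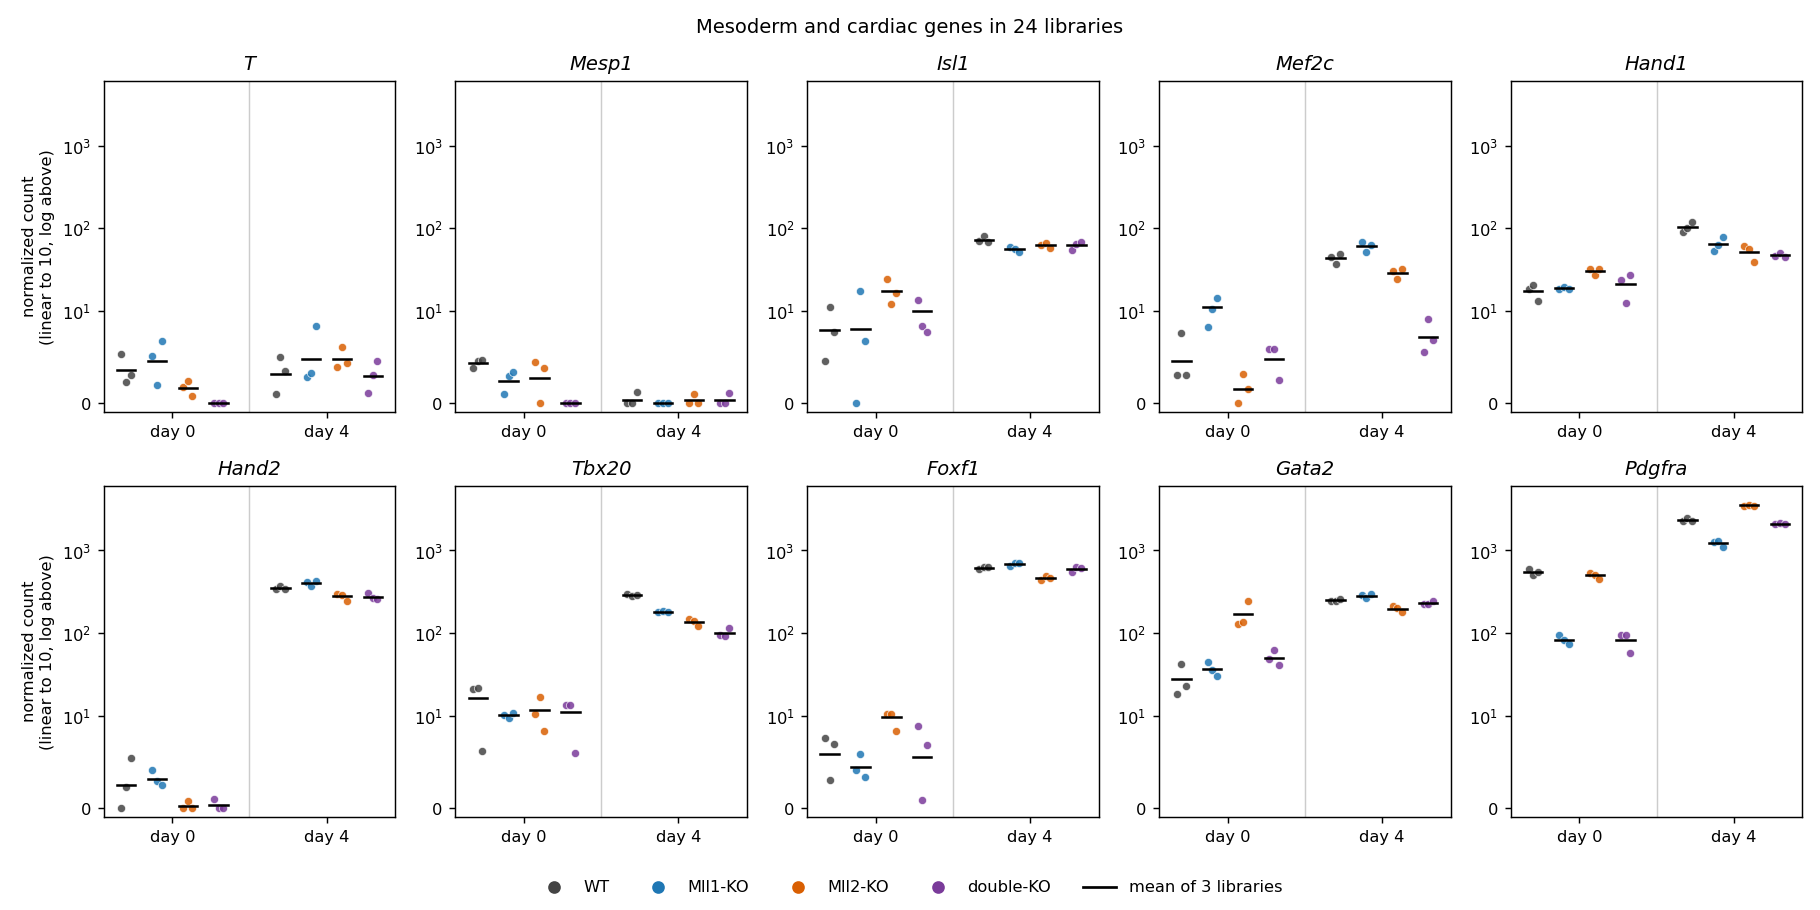
Normalized counts of the 10 genes in all 24 libraries (points) with the mean of each group of 3 (bars), at day 0 and day 4; the axis is linear up to 10 and logarithmic above. T and Mesp1 stay below 10 in every library, while Hand2 and Foxf1 go from below 11 at day 0 to at least 244 at day 4.

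The early streak genes T and Mesp1 were at or near the limit of detection in every group, on both days. T (chromosome 17, 8434423 to 8442496) reached at most 8.41 in any library and Mesp1 (chromosome 7, 79792241 to 79793788) at most 4.66, where 1 read is worth 0.759 to 1.53. In day 0 WT, T was 5.36, 2.28 and 3.11 and Mesp1 was 3.83, 4.56 and 4.66. In the day 0 double-KO both genes were at 0 in all 3 libraries.

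The absence of reads in the day 0 double-KO was larger than the counting error of that group for both genes. With a floor of 3 counts over the double-KO, T was 4.02-fold lower than in day 0 WT and Mesp1 4.88-fold lower. Those folds take the 14 and 17 WT reads as exact, so they are lower bounds for counting error in the double-KO only. The reads carried no molecular identifiers, and other sources of error are not covered. Both genes fell below the minimum of 10 in 3 libraries that the test required and were not part of it. Without that minimum limma gave adjusted p = 0.001 for T and 0.00191 for Mesp1 in this comparison, and 0.000797 and 0.0262 against day 0 Mll1-KO. At day 4, T was 1.02, 5.01 and 3.53 in WT and 1.12, 3.07 and 4.56 in the double-KO, values that overlapped. Mesp1 had 1 read in all of day 4 WT against 17 in day 0 WT, a ratio of 12.3 with a 95% counting interval of 1.93 to 514, and it was at 0 in all 3 day 4 Mll1-KO libraries.

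Over the 4 days of differentiation the later members rose while T and Mesp1 stayed below 10, and every member tested was called higher at day 4 in WT. Foxf1, Hand2, Tbx20, Gata2, Isl1, Mef2c, Hand1 and Pdgfra made up these 8 of 8, with a median log2 change of 3.16 against 0.044 over all genes tested. The same fit called 82.9% of all genes in either direction and 43% as higher, so a call alone says little here and the sizes carry the description. Foxf1, Hand2 and Mef2c met the minimum for testing only through the day 4 libraries, so their being tested already depended on a high day 4 level. Without that minimum limma called Mesp1 lower at day 4 in WT (-2.04, adjusted p = 0.000706) and did not call T (-0.21, adjusted p = 0.734).

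Foxf1 (chromosome 8, 121084386 to 121088144) was 7.66, 3.04 and 6.99 in day 0 WT and 595, 637 and 630.3 in day 4 WT, a log2 change of 6.57 ± 0.37 (SE), adjusted p = 1.48e-15. Hand2 (chromosome 8, 57320983 to 57324633) was 0, 2.28 and 5.44 and then 338, 369 and 342, a change of 6.99 ± 0.41 (SE), adjusted p = 5.39e-15. Tbx20 (chromosome 9, 24718138 to 24774303) was 21.4, 22.0 and 6.21 and then 298, 283 and 287, a change of 4.23 ± 0.32 (SE), adjusted p = 1.89e-12. For these 3 genes each day 4 library lay more than 10 times above each day 0 library.

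Gata2 (chromosome 6, 88193891 to 88207032), Isl1 (chromosome 13, 116298281 to 116309689) and Mef2c (chromosome 13, 83504034 to 83667080) rose by similar amounts, with log2 changes of 3.20, 3.12 and 3.09. Hand1 (chromosome 11, 57828705 to 57832818) rose by 2.54, from 17.4 ± 3.76 to 105 ± 14.5. Pdgfra (chromosome 5, 75152292 to 75198215) rose by 2.08, from a level of 548 ± 40.4 that was already the highest of the set at day 0. The day 0 and day 4 WT libraries did not overlap for any of the 8. How many of all genes separated in this way was not computed, and 82.9% of them were called between these days.

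Divided by the length of the gene's exons, the order of the day 4 WT levels was Foxf1 (257 per kb), Pdgfra (232), Hand2 (149), Hand1 (52.4), Gata2 (46.4), Tbx20 (24.1), Isl1 (18.4), Mef2c (2.78), T (1.38) and Mesp1 (0.308). The exon lengths are unions over all annotated transcripts, so a gene with long alternative exons, such as Mef2c, is placed low on this scale.

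The rise with differentiation was kept in the mutants for most tested members, with 1 exception in each genotype that lost Mll2. In Mll1-KO 8 of 8 rose (84.1% of all genes were called, 43.7% as higher), in Mll2-KO 7 of 8 (81.5%, 41.9% as higher) and in the double-KO 7 of 8 (83.3%, 43.2% as higher). As in WT, Foxf1, Hand2 and Mef2c entered this test only through day 4 libraries, and T and Mesp1 were not tested. Gata2 in Mll2-KO was 171 ± 65.1 at day 0 and 198 ± 15.3 at day 4, a change of 0.27, with a 95% interval of -0.20 to 0.74, adjusted p = 0.279. Without the third day 0 Mll2-KO library this change was 0.56, adjusted p = 0.0249, so that 8 of 8 were called. Mef2c in the double-KO was 5.92, 5.89 and 2.58 at day 0 and 5.60, 9.20 and 6.84 at day 4, a change of 0.54, with a 95% interval of -0.32 to 1.41, adjusted p = 0.231, and the libraries of the 2 days overlapped. In bulk RNA fewer cells with a transcript and less transcript per cell cannot be told apart, here or in any result below. Hand2 rose from 1 read over the group to 816 reads in Mll2-KO and to 673 in the double-KO, ratios of 1026 (184 to 40573) and 935 (167 to 36977) with 95% counting intervals. Hand1 rose by 0.73 in Mll2-KO, and by 0.76 without the third day 0 Mll2-KO library, a call lost with quantile scaling (0.43, adjusted p = 0.125) and without the first day 4 Mll2-KO library (0.61, adjusted p = 0.0539). Quantile scaling also gave smaller rises of Hand1 in Mll1-KO (1.08 in place of 1.71) and in the double-KO (0.68 in place of 1.19). The rise of Isl1 in Mll1-KO was 3.44, and 2.24 without the first day 0 Mll1-KO library, in which Isl1 was at 0.

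Genes of neighbouring programmes give the setting of these rises. Counts in these lists and in those of other cell types stand against 82.9% of all genes called in WT between days, 43% as higher. Of 17 tested genes of lateral plate and splanchnic mesoderm all 17 rose in WT (median 3.58), and of 25 other cardiac transcription factors 18 rose and 3 fell (1.61). Tbx2, a repressor of the chamber programme, rose from 11.5 ± 5.16 to 1311 ± 81.4, and Gata5 was 378 ± 32.6 at day 4 against 0.253 ± 0.438 at day 0. Of 17 contractile and natriuretic peptide genes 10 rose and 4 fell, with Actc1, cardiac actin, at 146 ± 14.3 and Ttn falling from 183 ± 47.9 to 23.0 ± 5.42. The streak and early mesoderm list was mixed, with 6 of 15 higher and 8 lower. Foxc2, a forkhead factor of paraxial mesoderm, rose from 16.7 ± 6.04 to 717 ± 8.76.

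Markers of other cell types moved over the same days. Of 20 endoderm genes 19 rose and 1 fell, of 11 tested trophoblast genes 9 rose and 2 fell, of 11 fibroblast and mesenchyme genes 10 rose and 1 fell, and of 13 blood and endothelial genes 3 rose and 7 fell. All 12 pluripotency genes fell, Pou5f1 from 33390.1 ± 219 to 958 ± 129.5. The embryonic globin genes Hba-x and Hbb-y and the adult globin gene Hba-a1 were at 0 in all 3 day 4 WT libraries. The part of these cell types in the levels of the 10 genes was not tested.

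At day 0 the differences with the smallest adjusted p were in Pdgfra, which was low in both genotypes without Mll1. It was 589.6, 509 and 547 in WT, 94.7, 82.0 and 74.2 in Mll1-KO, 533, 511 and 456 in Mll2-KO and 96.7, 94.3 and 58.5 in the double-KO. Every library without Mll1 lay at or below 96.7, and every library with it at or above 456. The log2 change was -2.70 ± 0.15 (SE), adjusted p = 2.17e-11 in Mll1-KO and -2.74 ± 0.15 (SE), adjusted p = 9.03e-12 in the double-KO, 6.51-fold and 6.68-fold lower. In Mll2-KO it was -0.13, with a 95% interval of -0.45 to 0.18, adjusted p = 0.492, and -0.069, adjusted p = 0.762, without the third Mll2-KO library. Between the double-KO and Mll1-KO it was -0.037, with a 95% interval of -0.35 to 0.28, adjusted p = 0.871. These intervals leave room for differences of that size and do not show equal levels.

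Endoderm markers moved with Pdgfra. Of 17 tested genes of the endoderm list 15 were lower in day 0 Mll1-KO and none higher, 15 were lower in the double-KO and none higher, and in Mll2-KO 2 were higher and 1 lower, also without the third Mll2-KO library, with medians of -2.71 in Mll1-KO against 0.0049 over all genes. Over all genes 40% were called in Mll1-KO (18.7% as lower), 53.7% in the double-KO (27.1% as lower) and 47.2% in Mll2-KO. The summed level of the 20 endoderm genes was 40187 to 42406 in WT, 9692 to 10702 in Mll1-KO, 42516 to 44972 in Mll2-KO and 10052 to 10517 in the double-KO. Afp was at 0 in all 3 libraries of each of these 4 groups. Gata4, an endoderm and cardiac factor, was 802 ± 71.0, 154 ± 12.0, 878 ± 67.4 and 233 ± 14.2 in the same order. The part of endoderm-like cells in the level of Pdgfra was not tested.

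**Figure D2:**
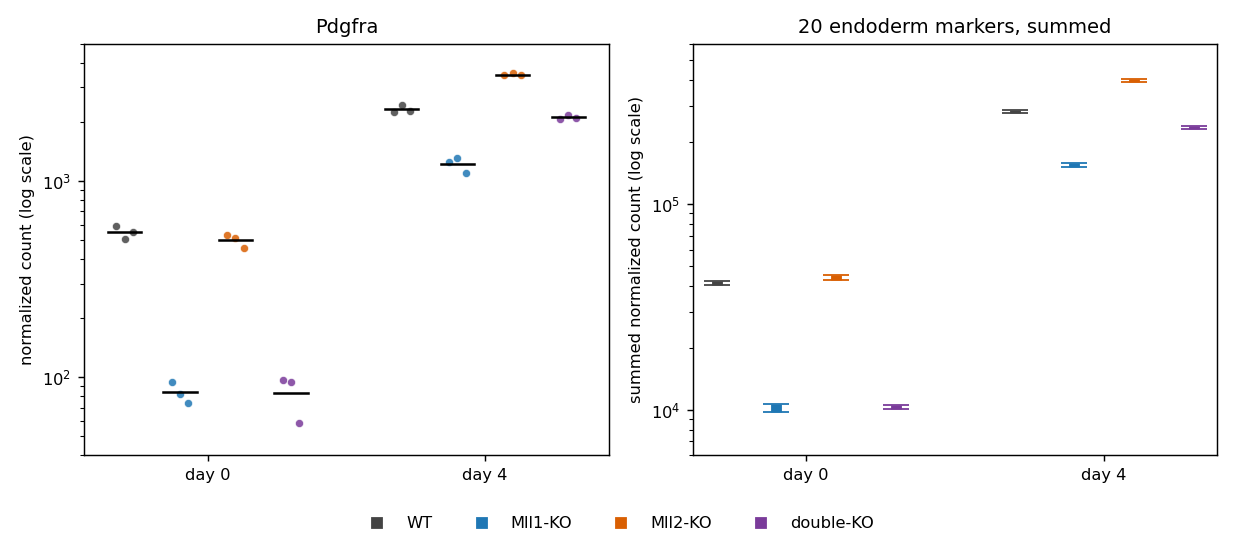
Left, Pdgfra normalized counts per library (points) with group means (bars); right, the lowest and highest summed normalized count of the 20 endoderm genes over the 3 libraries of each group; both axes are logarithmic. Both quantities were low at day 0 in Mll1-KO and double-KO, and at day 4 both ran from Mll1-KO, the lowest, through double-KO and WT to Mll2-KO.

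Gata2 rose in day 0 Mll2-KO. It was 18.4, 42.5 and 23.3 in WT, 45.3, 36.1 and 30.4 in Mll1-KO, 129.8, 138 and 246 in Mll2-KO and 49.3, 62.3 and 41.3 in the double-KO. All 3 Mll2-KO libraries lay above every other day 0 library, and the highest value came from the library that stood apart. The log2 change against WT was 2.59 ± 0.29 (SE), adjusted p = 4e-07, 6.03-fold higher, and 2.30, adjusted p = 7.43e-07, without that library. The double-KO was lower than Mll2-KO by -1.69 on the log2 scale (adjusted p = 6.31e-05; without that library -1.39, adjusted p = 0.000356).

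Joint loss did not give the sum of the separate changes in Gata2 at day 0. If the log2 changes of both single mutants had added up, the double-KO would have been at 227, and 50.2 was observed, where both are back-transformed means of log2 values. The departure from additivity was -2.15 ± 0.40 (SE), adjusted p = 0.0017, and -1.86, adjusted p = 0.00236, without the third Mll2-KO library. Non-additivity was called in 1 of 5 tested members and in 9.13% of all genes. Against WT the double-KO was 0.91, adjusted p = 0.0113, but the libraries overlapped, and the call was lost without the first day 0 WT library (0.66, adjusted p = 0.076) or without the second double-KO library (0.75, adjusted p = 0.0589). In Mll1-KO the change was 0.46, adjusted p = 0.209, and 0.80, adjusted p = 0.034, without the second day 0 WT library.

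The other members were low at day 0, and few of their differences passed the test. Hand1 was 18.4, 20.5 and 13.2 in WT and 32.2, 27.4 and 32.0 in Mll2-KO, groups that did not overlap, with a change of 0.80 ± 0.32 (SE), adjusted p = 0.0432. That call was lost without a minimum on low values (adjusted p = 0.0768), with a replicate block (0.0505), and in 7 of the fits that left out 1 library, among them that without the third Mll2-KO library (0.76, adjusted p = 0.104). Isl1 and Tbx20 were called in none of the 5 comparisons of groups at day 0, and Isl1 ranged from 0 to 17.6 within Mll1-KO alone. With the double-KO against Mll1-KO, Isl1 was 1.03, adjusted p = 0.262, and 1.94, adjusted p = 0.0367, without the second Mll1-KO library. Foxf1, Hand2 and Mef2c fell below the minimum at day 0. Mef2c was 8.23, 10.7 and 14.3 in Mll1-KO, above all 3 WT libraries at 3.06, 7.59 and 3.11, and without the minimum the difference had an adjusted p of 0.113. Hand2 was 4.12, 2.93 and 2.53 in Mll1-KO and 0.986, 0 and 0 in the double-KO, with an adjusted p of 0.0286 between them without the minimum.

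In counts, day 0 gave 1 of 5 tested members lower in Mll1-KO (Pdgfra; 40% of all genes called, 18.7% as lower), 2 higher in Mll2-KO (Gata2 and Hand1; 47.2%, 22.8% as higher) and, in the double-KO, Gata2 higher and Pdgfra lower (53.7%). None of the 5 was called between double-KO and Mll1-KO by limma (41% of all genes), also at an unadjusted p of 0.05, and edgeR and DESeq2 called none as well. Between double-KO and Mll2-KO Gata2 and Pdgfra were lower (47.7%, 24.3% as lower). Without the third Mll2-KO library 1 member, Gata2, was called in Mll2-KO (41.5% of all genes), and Pdgfra was lower in the double-KO than in Mll2-KO by -2.67, adjusted p = 1.44e-12, in place of -2.61.

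At day 4 Tbx20 gave the most regular series among the members. It was 298, 283 and 287 in WT, 180.0, 185 and 182 in Mll1-KO, 147, 142 and 122 in Mll2-KO and 95.1, 93.5 and 116 in the double-KO. No library of any of the 4 groups overlapped with those of another, and the group means fell from 289 ± 7.69 through 183 ± 2.69 and 137 ± 13.1 to 102 ± 12.7.

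All 5 comparisons run for Tbx20 at day 4 between groups passed the test, and the step from Mll1-KO to Mll2-KO was not among them. Against WT the log2 change of Tbx20 was -0.66 ± 0.11 (SE), adjusted p = 3.8e-05 in Mll1-KO, -1.08 ± 0.11 (SE), adjusted p = 1.67e-08 in Mll2-KO and -1.51 ± 0.11 (SE), adjusted p = 2.66e-11 in the double-KO. The double-KO was also lower than Mll1-KO (log2 -0.85, adjusted p = 5.3e-07) and than Mll2-KO (-0.43, adjusted p = 0.003). The departure from additivity was 0.23, with a 95% interval of -0.090 to 0.55, adjusted p = 0.347, and 86.0 was the level additive changes would give where 101 was observed. When the day 0 libraries joined the fit, the difference between Mll1-KO and WT (adjusted p = 0.139) and that between double-KO and Mll2-KO (0.346) were no longer called.

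Hand1, a bHLH factor of the left ventricle and of extraembryonic mesoderm, was lower in all 3 mutants at day 4. It was 91.5, 102 and 120.2 in WT, 53.4, 62.9 and 78.5 in Mll1-KO, 60.8, 56.1 and 39.3 in Mll2-KO and 45.9, 50.6 and 45.6 in the double-KO. WT lay above every mutant library, while Mll2-KO overlapped with Mll1-KO and with the double-KO. The changes against WT were -0.69 ± 0.19 (SE), adjusted p = 0.00572, -1.01 ± 0.19 (SE), adjusted p = 9.99e-05 and -1.12 ± 0.19 (SE), adjusted p = 2.14e-05. The difference between double-KO and Mll2-KO was -0.11, with a 95% interval of -0.50 to 0.28, adjusted p = 0.68. All double-KO libraries lay below those of Mll1-KO, with a change of -0.43, with a 95% interval of -0.82 to -0.043, adjusted p = 0.0554. That change was called in 4 of 22 alternatives, among them edgeR (adjusted p = 0.0465) and scaling to column totals (0.0192). Over the 22 it ran from -0.56 to -0.036, with adjusted p up to 0.889.

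Mef2c, a MADS box factor of heart, muscle and vessels, was lowest at day 4 where both genes were deleted. It was 44.7, 37.1 and 49.5 in WT, 68.9, 51.9 and 63.1 in Mll1-KO, 30.4, 24.5 and 32.7 in Mll2-KO and 5.60, 9.20 and 6.84 in the double-KO. The groups did not overlap, and the double-KO lay below all of them.

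The double-KO differed from WT by -2.46 ± 0.25 (SE), adjusted p = 9.81e-09, 5.50-fold lower, from Mll1-KO by -2.94, adjusted p = 3.95e-10, and from Mll2-KO by -1.89, adjusted p = 1.21e-06. Neither single mutant was called against WT, with 0.48, with a 95% interval of -0.040 to 0.99, adjusted p = 0.145 in Mll1-KO and -0.57, with a 95% interval of -1.09 to -0.051, adjusted p = 0.0672 in Mll2-KO. The latter was called in 4 of 22 alternatives, among them a pseudocount of 5 (adjusted p = 0.0438), scaling to column totals (0.0375) and edgeR (0.0248). Over the 22 it ran from -0.68 to -0.24, with adjusted p up to 0.466. Additive log2 changes would have given 40.7, and 7.08 was observed, again as back-transformed means. The departure of -2.37 ± 0.35 (SE), adjusted p = 6.83e-05 was the only one called among 8 tested members, where 13.6% of all genes were called. The most upstream Mef2c promoter window, shown above, held 1 CpG, and the other Mef2c windows held 6 and 4. Which start was used is not known, and a link between CpG content and these levels was not tested.

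**Figure D3:**
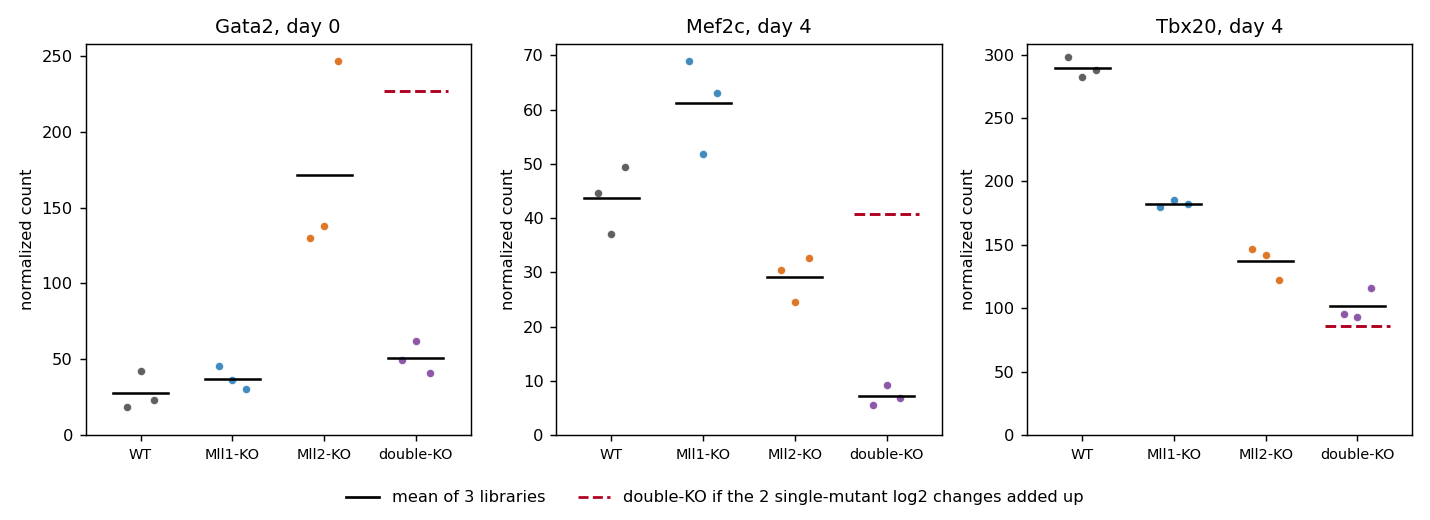
Normalized counts per library (points) and group means (bars) of Gata2 at day 0 and of Mef2c and Tbx20 at day 4; the dashed line is the double-KO level that the sum of the 2 single-mutant log2 changes would give. The double-KO lay far below that line for Gata2 (50.2 against 227) and Mef2c (7.08 against 40.7) and near it for Tbx20 (101 against 86.0).

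Pdgfra moved in opposite directions in the single mutants at day 4. It was 2248, 2437 and 2286 in WT, 1253, 1311 and 1099 in Mll1-KO, 3459.6, 3539 and 3477 in Mll2-KO and 2076, 2165 and 2103 in the double-KO. The 4 groups did not overlap. Against WT the change was -0.93 ± 0.052 (SE), adjusted p = 4.58e-13 in Mll1-KO and 0.59 ± 0.052 (SE), adjusted p = 1.26e-09 in Mll2-KO. In the double-KO it was -0.14 ± 0.052 (SE), adjusted p = 0.0327, a call lost without the second WT library (-0.10, adjusted p = 0.164), without the first double-KO library (-0.12, 0.0884), without the third (-0.13, 0.0708), and when the day 0 libraries joined the fit (0.383). Quantile scaling gave -0.21 for it. The double-KO was higher than Mll1-KO (0.80, adjusted p = 2.98e-12) and lower than Mll2-KO (-0.72, adjusted p = 4.36e-11).

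The endoderm list again moved with Pdgfra at day 4. In Mll1-KO 19 of 20 genes were lower and none higher (median -0.90), in Mll2-KO 13 were higher and 3 lower (0.41), and in the double-KO 3 were higher and 13 lower (-0.29), against -0.0024, 0.040 and 0.026 over all genes tested. Over all genes 35.8% were called in Mll1-KO (19.2% as lower), 45.7% in Mll2-KO (25.4% as higher) and 50.9% in the double-KO (23.3% as lower). The summed level of the endoderm list was 277167 to 285389 in WT, 152045 to 158627 in Mll1-KO, 391127 to 403609 in Mll2-KO and 230869 to 239172 in the double-KO. Sox7 and Sox17, endoderm factors, were 645 ± 11.9 and 761 ± 16.9 in Mll2-KO against 304 ± 19.9 and 420.2 ± 28.2 in WT, and Apoa1 fell from 414 ± 50.2 to 46.5 ± 8.60 in Mll1-KO. The part of these cells in the level of Pdgfra was not tested.

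Hand2, Foxf1 and Gata2 differed by small amounts at day 4. Hand2 was 349.6 ± 16.8 in WT, 409 ± 27.5 in Mll1-KO, 279 ± 29.8 in Mll2-KO and 277 ± 23.6 in the double-KO. Foxf1 was 621 ± 22.1, 685 ± 34.7, 468 ± 20.3 and 594 ± 36.9, and Gata2 was 251 ± 8.44, 284 ± 18.1, 198 ± 15.3 and 232 ± 10.6. In all 3 genes Mll1-KO had the highest and WT the next highest group mean, and no change against WT reached 1.5-fold.

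In Mll2-KO all 3 were called lower than WT, by -0.33, adjusted p = 0.00373 for Hand2, -0.41, adjusted p = 1.27e-05 for Foxf1 and -0.34, adjusted p = 0.00332 for Gata2. In the double-KO Hand2 was called (-0.34, adjusted p = 0.00274), while Foxf1 (-0.064, with a 95% interval of -0.20 to 0.069, adjusted p = 0.427) and Gata2 (-0.11, with a 95% interval of -0.30 to 0.074, adjusted p = 0.313) were not. Foxf1 and Gata2 were higher in the double-KO than in Mll2-KO (0.34, adjusted p = 0.000126, and 0.23, adjusted p = 0.0473), the call of Gata2 being lost under 5 of the alternatives with all libraries and in 9 fits that left out 1 library (adjusted p up to 0.495). Against Mll1-KO the double-KO was lower in Hand2 (-0.56, adjusted p = 9.1e-06), Foxf1 (-0.21, adjusted p = 0.00893) and Gata2 (-0.29, adjusted p = 0.00835). For Foxf1 that call was lost without the first double-KO library (adjusted p = 0.0641), and scaling to column totals made it -0.31. None of these calls of Hand2, Foxf1 and Gata2 remained when the day 0 libraries joined the fit, where adjusted p was 0.261 to 0.673. Hand2 in Mll1-KO was 0.22, adjusted p = 0.0524, just outside the threshold. It was called in 7 of 22 alternatives, among them edgeR (0.0375), scaling to column totals (0.0197) and a minimum of 50 (0.0463). In the others adjusted p was up to 0.744. Foxf1 in Mll1-KO was 0.14, adjusted p = 0.0904. It was called in 2 of 22 alternatives, among them scaling to column totals (adjusted p = 0.025), with adjusted p up to 0.826 in the others.

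Isl1 was called in no comparison of genotypes at day 4. It was 72.9 ± 6.40 in WT, 55.7 ± 3.62 in Mll1-KO, 62.3 ± 4.22 in Mll2-KO and 62.6 ± 6.98 in the double-KO. Mll1-KO lay below WT in every library, with a change of -0.38, with a 95% interval of -0.71 to -0.044, adjusted p = 0.0716. That change was called in 1 of 22 alternatives, quantile scaling (adjusted p = 0.0404), with adjusted p up to 0.677 in the others. Between double-KO and Mll1-KO the change was 0.16, but 0.54, adjusted p = 0.00703, with quantile scaling.

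**Figure D4:**
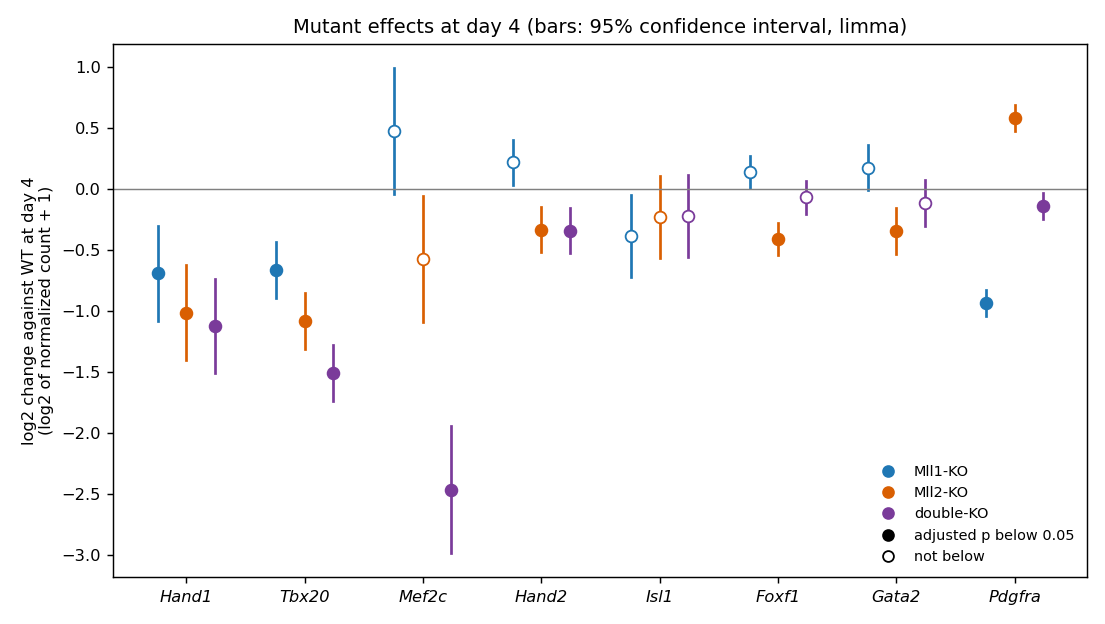
Log2 change of each mutant against WT at day 4 for the 8 members tested (points) with 95% confidence intervals (bars), filled where the adjusted p was below 0.05. Hand1 and Tbx20 lie below 0 in all 3 mutants, Mef2c lies far below 0 in the double-KO, and Pdgfra is the only filled point above 0, in Mll2-KO.

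In counts, day 4 gave 0 members higher and 3 lower of 8 in Mll1-KO (35.8% of all genes called, 19.2% as lower), 1 higher and 5 lower in Mll2-KO (45.7%, 20.3% as lower) and 0 higher and 5 lower in the double-KO (50.9%, 23.3% as lower). The median change of the 8 was -0.12, -0.37 and -0.28, against -0.0024, 0.040 and 0.026 over all genes tested. Between double-KO and Mll1-KO 1 was higher and 5 lower (54.8% of all genes), and between double-KO and Mll2-KO 2 were higher and 3 lower (40.3%). Among all called genes the share called higher went from 55.6% to 34.5% in Mll2-KO, from 54.2% to 41.4% in the double-KO and from 46.2% to 60.3% in Mll1-KO when libraries were scaled to their column totals. The direction of the calls of the members against WT was the same under that scaling. The comparisons with WT share the WT libraries, so their counts are not independent of each other.

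Other genes of the cardiac and mesodermal programmes did not all follow the 8 members. The list counts from here on stand against 35.8% of all genes called in day 4 Mll1-KO, 45.7% in Mll2-KO and 50.9% in the double-KO. Of 25 other cardiac transcription factors 5 were higher and 6 lower in day 4 Mll1-KO, 11 and 5 in Mll2-KO, and 9 and 6 in the double-KO. Nkx2-5, a core cardiac factor, was 79.0 ± 7.42 in WT, 227 ± 16.8 in Mll2-KO and 288 ± 25.3 in the double-KO, with log2 changes of 1.51, adjusted p = 9.27e-11, and 1.85, adjusted p = 1.38e-12. Tbx18, a factor of the proepicardium and sinus horn, was 253 ± 14.5 in WT, 469.6 ± 25.7 in Mll1-KO, 80.0 ± 9.99 in Mll2-KO and 104 ± 5.68 in the double-KO, higher in the first mutant and lower in the others. Gata5 fell from 378 ± 32.6 to 199 ± 23.8 in Mll2-KO and to 233 ± 6.83 in the double-KO.

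In the lateral plate list 7 genes were higher and 2 lower of 17 in Mll1-KO, 5 and 8 in Mll2-KO, and 5 and 9 in the double-KO. Osr1, an odd-skipped factor of intermediate and lateral plate mesoderm, fell from 273 ± 6.60 in WT to 30.5 ± 2.79 in Mll2-KO and 20.1 ± 2.55 in the double-KO, with log2 changes of -3.12, adjusted p = 5.49e-15, and -3.70, adjusted p = 1.16e-16. Prrx1, a homeobox factor of limb and lateral plate mesenchyme, fell from 131 ± 18.9 to 64.4 ± 8.67 and 32.3 ± 4.63. Barx1 rose, to 219 ± 10.5 in Mll2-KO and 218 ± 12.4 in the double-KO from 121 ± 15.5, and Foxf2, the paralogue of Foxf1, rose in Mll2-KO from 87.6 ± 15.3 to 235 ± 11.5, while Foxf1 itself was lower there.

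Of 13 tested streak and early mesoderm genes 4 were lower and none higher in Mll1-KO, 2 were higher and 2 lower in Mll2-KO, and 8 were lower and none higher in the double-KO. Foxc1, a forkhead factor of paraxial and cardiac mesoderm, fell from 175 ± 1.99 to 88.7 ± 12.3 in Mll2-KO and 68.1 ± 17.6 in the double-KO. Among 11 tested mesoderm-inducing ligands 2 were higher and 3 lower in Mll1-KO, 4 and 3 in Mll2-KO, and 3 and 4 in the double-KO. Wnt3, needed for streak formation, rose from 55.4 ± 21.6 in WT to 129.9 ± 2.17 in Mll2-KO and 158 ± 13.1 in the double-KO, whereas Bmp4 fell from 272 ± 14.2 to 178 ± 3.33 and 149 ± 6.52 and Wnt5a from 388 ± 22.6 to 190.0 ± 15.0 and 156 ± 4.04.

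The partners of Pdgfra did not move as a block. Of 6 PDGF ligands and related receptors 3 were higher and none lower in Mll1-KO, 1 was higher and 4 lower in Mll2-KO, and 2 were higher and 2 lower in the double-KO. Pdgfc, a ligand of the receptor that Pdgfra encodes, rose from 1007 ± 118 in WT to 1584 ± 66.9 in Mll1-KO, where Pdgfra was lower. Pdgfd, a ligand of the other PDGF receptor, fell from 110.5 ± 12.8 to 19.7 ± 6.24 in Mll2-KO and 18.5 ± 4.18 in the double-KO, and Pdgfrl, which encodes a receptor-like protein, fell from 113 ± 7.13 to 19.7 ± 3.67 and 13.6 ± 6.91.

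Of 17 contractile and natriuretic peptide genes 1 was higher and 2 lower in Mll1-KO, 6 and 4 in Mll2-KO, and 7 and 2 in the double-KO. Actc1 rose from 146 ± 14.3 to 571 ± 73.3 in the double-KO, and Myl7, the atrial myosin light chain, from 91.5 ± 5.47 to 217 ± 22.9 in Mll2-KO.

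Some markers of other cell types differed between the day 4 genotypes as well. Over all genes 35.8% were called in Mll1-KO, 45.7% in Mll2-KO and 50.9% in the double-KO, so a count near such a share says little about its list. In the fibroblast and mesenchyme list 9 of 11 genes were higher and 2 lower in the double-KO, with Col3a1 at 12626 ± 455 against 5050.3 ± 301 in WT, and the summed level of the 12 genes was 111178 to 124057 there and 66643 to 74694 in WT. In the blood and endothelial list, which bears on Gata2, 0 were higher and 5 lower of 11 in Mll1-KO, 4 and 3 in Mll2-KO, and 4 and 5 in the double-KO. Its summed level was 677 to 744 in WT, 422 to 550 in Mll1-KO, 970.0 to 1066 in Mll2-KO and 703 to 742 in the double-KO, an order other than that of Gata2. In the trophoblast list, which bears on Hand1 and Gata2, 1 was higher and 8 lower of 11 in Mll1-KO, 2 and 4 in Mll2-KO, and 0 and 4 in the double-KO. Its summed level was 38594 to 39914 in WT, 28728 to 32231 in Mll1-KO, 31122 to 34204 in Mll2-KO and 33869 to 37303 in the double-KO, below WT in each mutant, though not in the order of Hand1. The summed level of the neural and neural crest list was 4900 to 5368 in WT, 5787 to 6541 in Mll1-KO, 4787 to 5536 in Mll2-KO and 7324 to 7877 in the double-KO. That of the pluripotency genes, given above, also differed between the day 4 genotypes. The part of these cell types in the levels of the members was not tested.

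The effect of a genotype changed between the days for 4 members. For Pdgfra the Mll1-KO effect went from -2.70 at day 0 to -0.93 at day 4, a difference of 1.77 ± 0.17 (SE), adjusted p = 5.78e-09, and the double-KO effect from -2.74 to -0.14, a difference of 2.60 ± 0.17 (SE), adjusted p = 1.8e-12. The Mll2-KO effect changed by 0.72 ± 0.17 (SE), adjusted p = 0.00134, or 0.66, adjusted p = 0.00454, without the third day 0 Mll2-KO library. For Gata2 the Mll2-KO effect went from 2.59 to -0.34, a difference of -2.93 ± 0.32 (SE), adjusted p = 8.01e-08, or -2.64, adjusted p = 1.57e-07, without that library. With all 24 libraries in the fit, as for this difference, the day 4 effect was not called (adjusted p = 0.261). The difference thus does not show a turn in direction. In the double-KO the change was -1.02, adjusted p = 0.0136, lost without the first day 0 WT library (adjusted p = 0.0564).

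For Hand1 the Mll2-KO effect went from 0.80 to -1.01, with a difference of -1.81 ± 0.36 (SE), adjusted p = 0.000261, or -1.77, adjusted p = 0.000774, without the third day 0 Mll2-KO library. The day 0 call of higher was lost in 9 of 21 alternatives, so the difference is firmer than the turn in direction. In the double-KO the effect on Hand1 changed by -1.35, adjusted p = 0.00352. For Mef2c the double-KO effect changed by -2.54 ± 0.59 (SE), adjusted p = 0.00118, where the day 0 levels were low, 3.06 to 7.59 in WT and 2.58 to 5.92 in the double-KO. In all 1 of 8 members was called for Mll1-KO (34% of all genes), 3 for Mll2-KO (36.3%) and 4 for the double-KO (39.4%). Tbx20 in the double-KO missed the threshold (adjusted p = 0.0657) and passed it in 7 alternatives, among them DESeq2 (0.0342). Foxf1 in Mll2-KO (-1.13, adjusted p = 0.0885) was called with edgeR (0.0167) and DESeq2 (0.0149), as was Isl1 in Mll2-KO (-1.31, adjusted p = 0.207, and 0.0334 and 0.00976). Without the third day 0 Mll2-KO library these were -1.24, adjusted p = 0.0823, and -1.32, adjusted p = 0.245. Of 33 alternatives Foxf1 was called in 5 (adjusted p up to 0.255) and Isl1 in 3 (up to 0.383). Hand2 was called only without the first day 0 WT library, where it was at 0, by 1.58 for Mll2-KO (adjusted p = 0.0073) and 1.53 for the double-KO (0.00773).

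Across the 24 libraries the genes whose levels were most like those of each member, by Pearson r of log2 values among 12856 genes, mostly share the difference between days. For Pdgfra they were Stard8 (r = 0.995), Col4a1 (0.992), a basement membrane collagen made by endoderm, and Gata4 (0.991). For Tbx20 they were Rin2 (0.979), Cep112 (0.977) and Hoxb5os (0.977). For Foxf1 they were Phlda1, Ttc39a (both 0.991) and Cilk1 (0.99), and for Hand2 Sox4, Cdk14 (both 0.992) and Rcn2 (0.991). Mef2c had Fgf5 (0.949), a gene of primed pluripotency, Wnt5b (0.919) and Fam120b (0.914). Gata2 had Clptm1 (0.957), Gtpbp2 (0.955) and Cbfa2t3 (0.948), a corepressor of blood cells. Hand1 (Gpcpd1, Dsg2 and Mdfi, r from 0.936 to 0.938) and Isl1 (Slc38a6, Itpr2 and Crat, 0.927 to 0.941) were less closely matched.

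Within the 12 day 4 libraries, where the day plays no part, Hand1 and Tbx20 varied most alike among the members (r = 0.898), followed by Foxf1 and Gata2 (0.877) and Hand2 and Gata2 (0.85). Pdgfra ran opposite to Gata2 (-0.898), Foxf1 (-0.875) and Hand2 (-0.747). These values describe 12 libraries in 4 groups that share their genotype differences and are not a test.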

How the data were processed

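The data are 24 polyA RNA libraries (stranded TruSeq mRNA, per the labels' protocols) in 8 groups of 3. The deposited signal is a count of reads per gene divided by 1 size factor per library. The factor could be read from the steps between low values, and with it 100% of the values came out whole (tolerance 1e-06), so reads were recovered for the count models. The submitters' processing notes name mm10 as the build and DESeq2 1.34.0, RSEM 1.3.1, STAR 2.7.10a, Trim Galore, SAMtools 1.13 and FastQC as tools. The annotation, the strand setting of the counting and the treatment of reads from near-identical genes are not given in the sources used here, and the recovered reads may be rounded estimates. The day 0 WT columns carry a letter the labels do not explain and were taken as WT because they are the only WT columns of that day.

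The 10 members, the gene lists and the tests were chosen with earlier results of these data known, and no list is independent support. The test was limma 3.58.1 (R 4.3.3, with a trend) on log2(normalized count + 1), for genes that reached 10 in 3 or more libraries, with Benjamini-Hochberg adjustment over all genes tested (13984 at day 0, 14303 at day 4, 15114 across days). A log2 change on this scale understates the change of low genes. Fits held the 12 libraries of a day, or all 24 across days. Called means an adjusted p below 0.05. Non-additivity is the double-KO minus Mll1-KO difference less the Mll2-KO minus WT difference. Alternatives were pseudocounts of 0.5 and 5, scaling to column totals or to common quantiles, no minimum or 50 as the minimum, a block for the replicate number, the libraries of the other day added to or dropped from the fit, edgeR 4.0.16 (quasi-likelihood, TMM), DESeq2 1.42.0, and each library left out in turn. The scripts were checked on simulated counts. Where a group had no reads a bound was set from a floor of 3 counts over the group, with the reads of the other group taken as exact. Other genes were named by rule: per list and comparison up to 2 called rises and 2 called falls with the largest log2 change and a higher group averaging 50 or more, a gene so named being described in other groups too. Marker genes at 0 and genes outside the rule were named after their values were seen. Positions and exon lengths are from GENCODE mouse release M21 and promoters from RefSeq on GRCm38.p6.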

Additional observations from a re-analysis of the deposited data

Results flagged for a closer look

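In 10 cases the effect of a genotype differed between contexts by a test of the difference itself (limma, Benjamini-Hochberg adjusted p). The effect of Mll2 loss on Gata2 at day 0 was lower without Mll1 than with it by -2.15 on the log2 scale (adjusted p = 0.0017), and that on Mef2c at day 4 by -2.37 (6.83e-05). Non-additivity was thus called in 1 of 5 tested members at day 0 and 1 of 8 at day 4, against 9.13% and 13.6% of all genes.

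Between day 0 and day 4 the Mll1-KO effect on Pdgfra changed by 1.77 (adjusted p = 5.78e-09), the Mll2-KO effect by 0.72 (0.00134) and the double-KO effect by 2.60 (1.8e-12). The Mll2-KO effect on Hand1 changed by -1.81 (0.000261) and the double-KO effect by -1.35 (0.00352). For Gata2 the Mll2-KO effect changed by -2.93 (8.01e-08) and the double-KO effect by -1.02 (0.0136), and for Mef2c the double-KO effect by -2.54 (0.00118). The day 0 levels of Mef2c were at or below 7.59 in WT and double-KO, and the first day 0 WT library decides the call of Gata2 in the double-KO (adjusted p = 0.0564 without it). Such changes were common among all genes. They were called in 1 of 8 members for Mll1-KO (34% of all genes), 3 for Mll2-KO (36.3%) and 4 for the double-KO (39.4%).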

How the results depend on the processing

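No called change of a member turned its direction under any of the alternatives run. Of 3575 single-gene values under an alternative, 3488 stayed on their side of the threshold, 43 lost a call and 44 gained one. Replicate numbers did not pair the libraries: residuals of same-numbered libraries correlated with a median r of 0.003 (range -0.045 to 0.077 over 84 pairs), and a replicate block left 1 member called in day 0 Mll2-KO in place of 2. Fits with the libraries of both days called 2 members in place of 1 in day 0 Mll1-KO, 4 in place of 2 in day 0 Mll2-KO, 2 in place of 0 for double-KO against Mll1-KO and 4 in place of 2 against Mll2-KO at day 0; at day 4 they called 3 in place of 6 in Mll2-KO, 3 in place of 5 in the double-KO, 3 in place of 6 for double-KO against Mll1-KO and 2 in place of 5 against Mll2-KO. Such fits test more members at day 0 and share the spread of low day 0 counts. With no minimum, where all 10 members were tested, day 0 gave 1 in Mll2-KO, 4 in the double-KO, 3 for double-KO against Mll1-KO and 4 against Mll2-KO, and a minimum of 50 gave 1 in day 0 Mll2-KO. Scaling to column totals called 5 in place of 3 in day 4 Mll1-KO, edgeR called 2 in place of 1 for non-additivity at day 4, edgeR and DESeq2 called 5 in place of 3 for the change of the Mll2-KO effect, and a pseudocount of 5 and quantile scaling each called 2 in place of 1 for that of the Mll1-KO effect; the cause was not tested. Leaving out 1 library gave 1 to 2 members in day 0 Mll1-KO, Mll2-KO and double-KO, 0 to 1 for double-KO against Mll1-KO at day 0, and 1 to 2 for non-additivity at day 4 and for the change of the Mll1-KO effect. Apart from the values that follow, the share of all genes called under each setting is not given. These member counts are therefore not set against it. Among all genes, non-additivity at day 4 was called in 1951, in 1000 with all 24 libraries and in 1269 without the second day 4 Mll2-KO library. On the recovered reads edgeR called 5316, 6406 and 7196 genes in day 4 Mll1-KO, Mll2-KO and double-KO, where limma called 5120, 6537 and 7277. Scaling to column totals shifted the share of higher calls from 53.2% to 38.9% in day 0 Mll1-KO, from 49% to 38.1% for double-KO against Mll2-KO at day 0, from 56.7% to 36.2% for double-KO against Mll1-KO at day 4, and from 44% to 64.7% and 53.2% to 37.5% for the changes of the Mll1-KO and Mll2-KO effects. It moved the median of all genes by -0.107 for double-KO against Mll1-KO at day 4, by 0.122, 0.233 and 0.12 between days in WT, Mll1-KO and double-KO, and by 0.112 for the change of the Mll1-KO effect, and quantile scaling moved the medians between days by -0.137 to -0.17. The rise of Mef2c in Mll2-KO was 3.77, and 2.40 with a pseudocount of 5. T and Mesp1, with at most 8.41 in a library, are limited by depth.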

Other observations

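Foxf1 and Hand2 have antisense neighbours, chosen here after their values were seen. Fendrr, a long noncoding RNA on the strand opposite to Foxf1 with a gap of 1275 bases, was 14.5 ± 2.22 in day 4 WT, 14.0 ± 7.78 in Mll1-KO, 11.0 ± 1.22 in Mll2-KO and 13.2 ± 3.82 in the double-KO, and at most 1.55 in any day 0 library. Like Foxf1 it was seen almost only at day 4, at a far lower level. Hand2os1, which overlaps 3251 bases of Hand2 on the other strand, was at 0 in all 12 day 0 libraries and at most 3.01 at day 4, when Hand2 was 338 to 369 in WT. The strand setting of the counting is not given in the sources used here, so reads of an overlapping pair may have been assigned to either gene.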
